A study of Mus musculus with 6 samples.

Results

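Uncoupling proteins and ADP/ATP carriers belong to the SLC25 family of carriers in the inner mitochondrial membrane. Members were taken as the rows whose gene symbol was *Ucp1*, *Ucp2*, *Ucp3*, *Slc25a4*, *Slc25a5*, *Slc25a14* or *Slc25a27*, with the row of highest total count standing for a symbol. Of these 7 symbols, 4 had a row in the count table (*Ucp1*, *Ucp3*, *Slc25a27* and *Slc25a4*), out of 19509 symbols and 37024 rows in all, and 3 of the 4 passed the filter on low counts. *Ucp2*, *Slc25a5* (the carrier ANT2) and *Slc25a14* were not analysed here, so *Ucp1* could be placed beside *Ucp3* and *Slc25a4* but not beside *Ucp2* or the second ADP/ATP carrier.

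UCP1 lets protons return to the mitochondrial matrix without making ATP, so that the energy of respiration is released as heat, and it is the hallmark protein of brown and beige adipocytes. ADP/ATP carriers bring ADP into the matrix and export ATP, and they also carry a fatty acid-activated proton leak. UCP3 is best known from skeletal muscle and brown fat, and the product of *Slc25a27*, also called UCP4, from nervous tissue. White adipose tissue usually holds few UCP1-expressing cells unless the animal is exposed to cold.

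Bulk RNA-Seq measured iWAT, the inguinal white fat depot, of mice given a Western diet for 12 weeks. The 3 libraries labelled *Lexis*-AdWT came from mice with both *Lexis* alleles floxed and no Cre, and the 3 labelled *Lexis*-AdKO from mice in which the floxed alleles were combined with Adipoq-cre. Both groups thus carried the floxed allele and ate the same diet, on a C57BL/6 background, while the labels do not state the age, sex or housing temperature of these mice, and the study's methods give ages for the majority of its experiments only. Adipoq-cre acts in adipocytes, so the *Lexis* gene was not targeted in the other cells of the depot. The labels call the libraries separate samples of a group, and the study's text calls them biological replicates.

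Library totals ranged from 14470542 to 17882713 counts, at which a count of 0 allows up to 3 counts, or 0.179 to 0.206 TMM-scaled CPM (counts per 1000000). The targeted lncRNA gene, listed as *4930412L05Rik*, had counts of 8, 9 and 8 under the label AdWT and of 21, 11 and 13 under the label AdKO. It was thus no lower under the label AdKO. Whether this row lies in the deleted segment was not examined here, so it does not decide on the labels, and AdWT and AdKO stand throughout for the libraries so labelled. The defining adipocyte transcripts were abundant, with *Fabp4*, a fatty acid-binding protein, at 419735 to 563899 counts. Some rows nevertheless hold next to nothing for genes that all cells use. *Atp5a1*, a subunit of the ATP synthase catalytic head, had 6 to 13 counts, while its partner *Atp5b* had 42360 to 56451, and all 4 rows of the triglyceride lipase *Pnpla2* were at 0. These genes were chosen after their values were seen. A row near 0 in these counts therefore cannot be read as absence of the RNA.

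The *Ucp1* row held few counts in every library and was higher in 2 of the 3 libraries labelled AdKO. *Ucp1* (ENSMUSG00000031710.3) is on the plus strand of chromosome 8 of mm9, from 85814247 to 85822355, with 1 annotated transcript of 1644 bases in 6 exons, and it has 1 row. None of the 1595 words of 50 bases in that transcript occurred in a coding transcript of another gene. Its counts were 25, 8 and 7 in AdWT replicates 1, 2 and 3, and 21, 58 and 67 in AdKO replicates 1, 2 and 3. AdKO replicates 2 and 3 were above all others, and AdKO replicate 1 lay just under AdWT replicate 1, so that the groups overlapped.

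The spread of *Ucp1* inside a group was the widest of the tested members. Its biological coefficient of variation in edgeR was 0.458, against 0.300 for *Ucp3* and 0.249 for *Slc25a27*. The common value over all rows tested, most of which had a higher mean CPM than *Ucp1*, was 0.196. On the CPM scale, AdWT replicate 1 measured 1.64, with an exact 95% Poisson interval of 1.06 to 2.41. AdWT replicates 2 and 3 measured 0.478 and 0.468, with upper bounds of 0.942 and 0.965. AdKO replicate 1 measured 1.44, with an upper bound of 2.21. AdKO replicates 2 and 3 measured 3.82 and 4.03, with lower bounds of 2.90 and 3.12. In each group the library numbered 1, singled out after its values were seen, had a counting interval that did not meet those of the other pair, upward in AdWT and downward in AdKO.

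The log2 fold change of *Ucp1*, AdKO over AdWT, was 1.85 with a 95% interval of 0.51 to 3.19 (standard error 0.574, unadjusted *p* = 0.0135, adjusted *p* = 0.851, edgeR quasi-likelihood test with Benjamini-Hochberg adjustment over 9872 rows). Its unadjusted *p* was number 147 of the 9872 in rising order, and 17 rows, itself included, had an absolute log2 fold change at least as large. *Ucp1* was the 1 member of 3 tested with an unadjusted *p* under 0.05, against 5.73% of all rows tested in either direction 2.76% in the higher and 2.98% in the lower direction. It was also the 1 member with an unadjusted *p* under 0.05 in DESeq2, at 0.00204, against 2.42% of all rows there. With an adjusted *p* under 0.05 there were 0 members and 0 rows (0%) in edgeR. DESeq2 had 27 such rows (0.392%), but its default filter left *Ucp1*, *Ucp3* and *Slc25a4* without an adjusted *p*, and *Slc25a27* had 0.999. Groups did not overlap in 0 of the 3 members, against 6.16% of all rows apart in the higher and 5.72% in the lower direction. An exact two-sided permutation test of log2(CPM + 0.5) gave *p* = 0.2 (n = 3 per group), where the smallest *p* possible is 0.1. The fold change was 2.69 on the log2 scale without AdWT replicate 1 and lay between 1.55 and 2.18 without any other library. The unadjusted *p* in edgeR's test rose to 0.0546 without AdWT replicate 2 and to 0.261 with the muscle level as a covariate, so the call at 0.05 was lost in both. With the covariate the standard error rose from 0.574 to 1.11. Muscle marker sums did not overlap between the groups, so the covariate was largely confounded with the label.

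**Figure D1:**
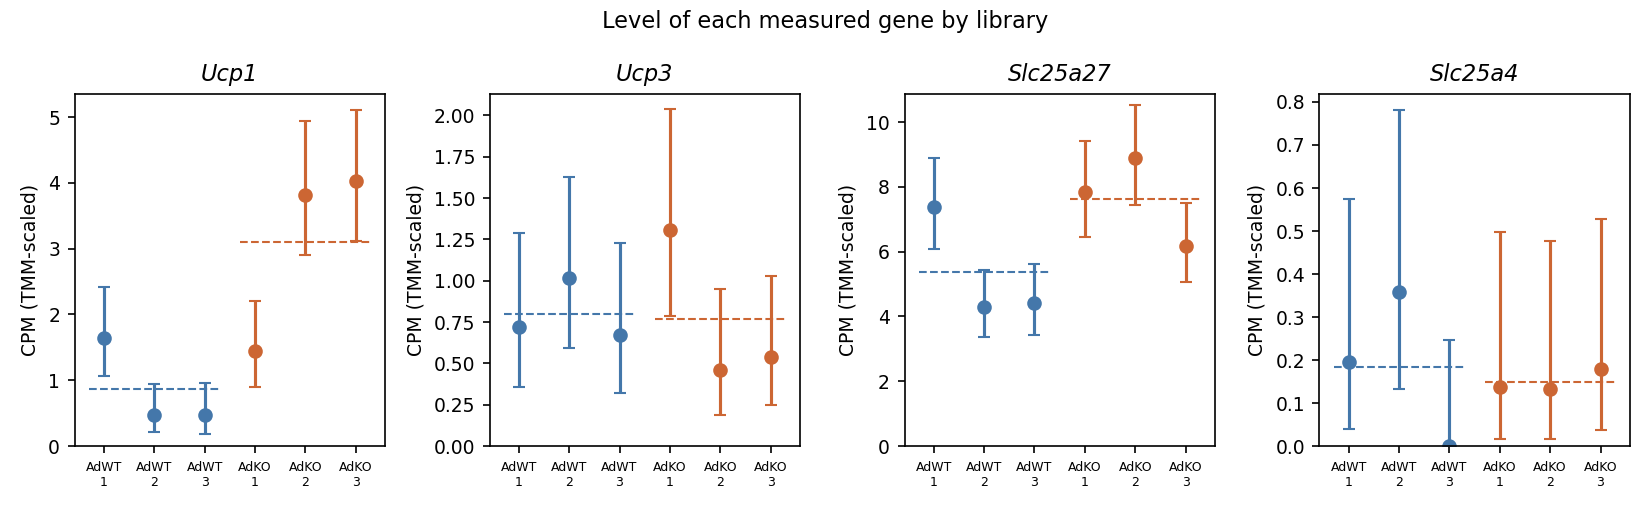
TMM-scaled CPM (vertical axes, from 0) of the 4 measured genes in each library, AdWT in blue and AdKO in orange, with exact 95% Poisson intervals and dashed group means (n = 3). *Ucp1* is highest in AdKO replicates 2 and 3, at 3.82 and 4.03 CPM, while the groups overlap for every gene shown.

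*Ucp3* (ENSMUSG00000032942.8), on chromosome 7 from 107621499 to 107634941, showed no difference between the groups that exceeded its spread. The better of its 2 rows had 11, 17 and 10 counts in AdWT against 19, 7 and 9 in AdKO, and the other row was at 0. The highest and the lowest count were both in AdKO. The log2 fold change was -0.08 with a 95% interval of -1.16 to 1.0 (adjusted *p* = 0.983, same edgeR test), so that a change of 2-fold in either direction lies at the edge of what these counts allow. The direction turned when single libraries were left out. Without AdKO replicate 1 the log2 fold change was -0.67, and without AdKO replicate 2 it was 0.17.

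*Slc25a27* (ENSMUSG00000023912.8), on the minus strand of chromosome 17 from 43778849 to 43804125, had the highest counts of the measured members. Its leading row had 113, 72 and 66 counts in AdWT against 114, 135 and 103 in AdKO, and its other 2 rows had 3 counts in all. On the CPM scale AdKO replicates 1 and 2 were above all libraries labelled AdWT, while AdKO replicate 3, at 6.19, was below AdWT replicate 1, at 7.39. Group means were 5.37 ± 1.75 and 7.64 ± 1.36 CPM (SD, n = 3 each). The log2 fold change was 0.51 with a 95% interval of -0.10 to 1.11 (unadjusted *p* = 0.0893, adjusted *p* = 0.853, same edgeR test). It was 0.81 without AdWT replicate 1, with an unadjusted *p* of 0.00779 and an adjusted *p* of 0.391 in edgeR's test, where 1208 rows had an unadjusted *p* under 0.05 against 566 with all libraries. It was 0.37 without AdWT replicate 2, with an unadjusted *p* of 0.250 in the same edgeR test. No annotated gene overlaps its span.

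*Slc25a4* (ENSMUSG00000031633.4), the ADP/ATP carrier ANT1 of heart and muscle, lies on the minus strand of chromosome 8 from 47292151 to 47296638. Its single row had 3, 6 and 0 counts in AdWT against 2, 2 and 3 in AdKO. Most of these counts are at or below the limit that a count of 0 allows, the gene did not pass the filter, and no fold change is given. In the annotation 36% of its exon bases lie in more than 1 of its 2 transcripts, against 0% for *Ucp1*, 28.4% for *Slc25a27* and 52.2% for *Ucp3*. The abundant rows of *Slc25a3* and *Atp5b* had shares of 32.6% and 43.2%, and the rows near or at 0 of *Atp5a1* and *Pnpla2* had 71.5% and 68.2%. The part of such bases in the low rows was not tested. How reads in such shared bases were assigned to rows is not given in the sources used here. With *Slc25a5* not analysed, these counts give no usable level for the ADP/ATP carriers.

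Levels of different genes were compared as CPM per kb of annotated exon. *Slc25a27* came first, at 2.29 ± 0.659 CPM per kb (SD, n = 6 libraries). *Ucp1* followed at 1.2 ± 0.963 and *Ucp3* at 0.251 ± 0.102. The gap between the first pair differed by group, since *Slc25a27* averaged 1.89 in AdWT and 2.68 in AdKO, and *Ucp1* 0.524 and 1.88 (n = 3 each). *Slc25a27* was above *Ucp1* in 5 of 6 libraries, the exception being AdKO replicate 3, by a mean of 1.27 on the log2 scale. *Ucp1* was above *Ucp3* in 5 of 6, the exception being AdWT replicate 2, by a mean of 1.70. This compares rows, since the assignment of reads in bases shared by transcripts (52.2% for *Ucp3*, 0% for *Ucp1*) is not known. The row of *Slc25a4* stood lowest, at 0.0711 ± 0.0495 and under *Ucp3* in 6 of 6 libraries, which describes the row and gives no level of the carrier. Exact sign-flip permutation tests within libraries gave *p* = 0.0625 for each of the first 2 pairs and *p* = 0.03125 for the last, the smallest that 6 libraries can give, and the adjusted *p* over the 3 pairs was 0.0625 for each. The neighbours were taken from the order of these same values, so the tests describe that order and give it no independent support. The order is thus not settled at the threshold of 0.05, which does not show that neighbours had like levels.

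Related carriers with a row give the scale. *Slc25a3*, the carrier that brings phosphate into the matrix for ATP synthesis, measured 78.7 ± 3.31 CPM per kb (SD, n = 6). *Slc25a30*, a close relative of the uncoupling proteins, measured 16.9 ± 2.56, above *Ucp1* in every library. *Slc25a31*, the ADP/ATP carrier of the testis, measured 0.209 ± 0.139 from 2 to 11 counts per library. *Ucp1* ranged from 0.285 to 2.45 CPM per kb, while *Slc25a3* ranged from 75.1 to 83.7.

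**Figure D2:**
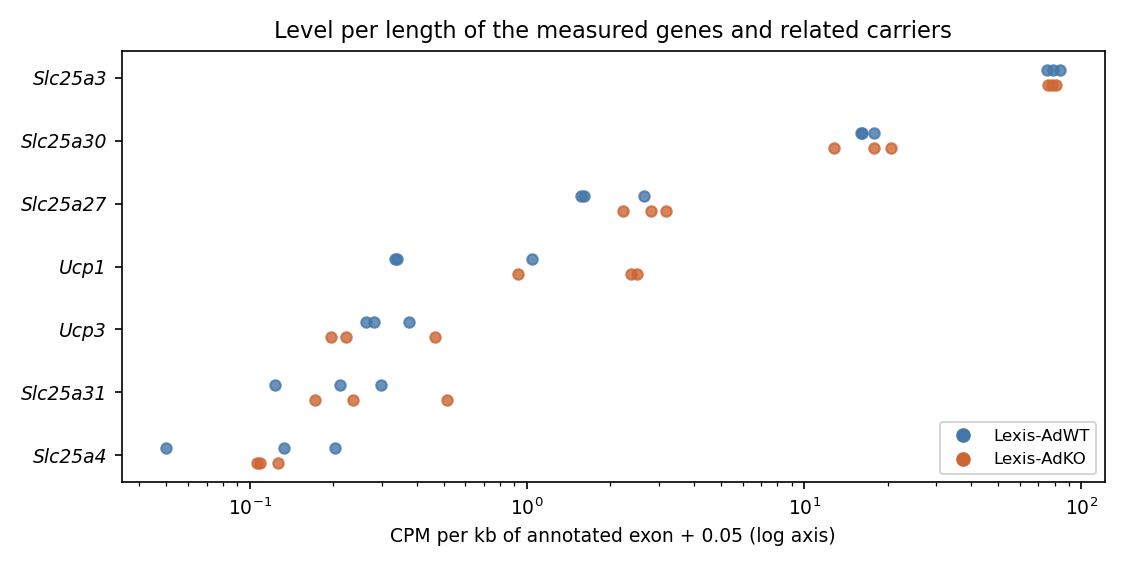
CPM per kb of annotated exon, with 0.05 added (log axis), of the measured members and 3 related carriers in the 3 AdWT (blue) and 3 AdKO (orange) libraries. *Slc25a3* lies between 75.1 and 83.7 in all libraries, whereas *Ucp1* spreads from 0.285 to 2.45.

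Against mitochondrial content the pattern of *Ucp1* was the same. The total used in place of the library's was the summed counts of 15 mitochondrial content genes, mainly of the outer membrane, the citrate cycle, the respiratory chain and protein import. On this scale *Ucp1* stood at 403, 107 and 105 counts per 1000000 in AdWT replicates 1, 2 and 3, and 349, 877 and 967 in AdKO replicates 1, 2 and 3. Again AdWT replicate 1 was above AdKO replicate 1. The log2 ratio differed by 1.96 between the group means (exact two-sided permutation test, *p* = 0.2, adjusted *p* = 0.4 over the 2 ratios computed, n = 3 per group). *Slc25a4* stood at 471, 772 and 0 counts per 1000000 counts of *Slc25a3* in AdWT and at 317, 292 and 430 in AdKO. The groups overlapped. The difference between the mean log2 ratios was 0.35 with 0.5 counts added and 0.15 with 1 count added. Without AdWT replicate 3, which had the count of 0, it was -0.70, so no direction is read from it.

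No gene tested among the thermogenic, carrier, mitochondrial and ATP lists had a log2 fold change as large as that of *Ucp1*. Among all rows tested 51.7% were higher in AdKO, and their median was 0.01 on the log2 scale. Of 25 thermogenic adipocyte genes named, 15 were tested, 9 higher and 6 lower, with a median of 0.09 that turned to -0.08 without AdKO replicate 3. Adjusted *p* stayed over 0.05 for all 15 in edgeR's test, while 1 higher and 2 lower genes had an unadjusted *p* under 0.05, against 2.76% and 2.98% of all rows tested. The higher one was *Cox8b*, a cytochrome c oxidase subunit of brown fat and muscle, with 769, 665 and 498 counts against 811, 1100 and 982 and a log2 fold change of 0.60. The lower ones were *Kcnk3*, a potassium channel, with -0.29, and *Letmd1*, a mitochondrial protein of brown fat, with -0.68 from 24 to 48 counts per library. In these 3 genes the groups did not overlap, as in 11.9% of all rows tested.

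The other thermogenic genes tested had an unadjusted *p* over 0.05. The fatty acid elongase *Elovl3* had the highest value of the list, 0.84, with 14, 14 and 15 counts against 12, 30 and 35, and AdKO replicates 2 and 3 were again its highest libraries. *Cidea*, a lipid droplet protein of thermogenic fat, had 417, 586 and 763 counts against 608, 507 and 805 and a log2 fold change of 0.13. *Prdm16*, a transcription factor of beige fat, had 7 to 20 counts per library, with a log2 fold change of 0.40 (adjusted *p* = 0.895, same edgeR test). *Dio2*, which activates thyroid hormone, measured -0.56 from 11 to 44 counts. The coactivators *Ppargc1a* and *Ppargc1b* were listed at 0 in every library, as were *Otop1*, *Tmem26* and *Zic1*, and *Bmp8b*, with 0 to 2 counts, was not tested.

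The other carriers and the ATP-making machinery had list medians within 0.1 of the all-row median on the log2 scale. Of 41 other SLC25 carriers named, 35 had a row and 24 were tested, 11 higher and 13 lower, with a median of -0.02 on the log2 scale. Their extremes were *Slc25a35*, at 0.84 from 4 to 15 counts, and *Slc25a34*, at -0.63 from 9 to 31 counts. *Slc25a3* measured -0.02 and *Slc25a30* measured 0.03. Of 21 mitochondrial content genes, 13 were tested, 2 higher and 11 lower, with a median of -0.03. With library size only in place of TMM the median of all rows moved from 0.01 to 0.05, and those of the carrier and mitochondrial lists moved with it, to 0.03 and 0.02. *Immt*, of the cristae, was highest at 0.52 from 7 to 29 counts, and *Timm23*, of the import channel, lowest at -0.18. Of 22 genes of ATP synthase and ATP export partners, 10 were tested, 1 higher and 9 lower, with a median of -0.06. *Nme4*, a mitochondrial nucleoside diphosphate kinase, measured 0.31 and *Atp5f1*, of the synthase stalk, -0.17. No gene tested in these 3 lists had an unadjusted *p* under 0.05 in its leading row.

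**Figure D3:**
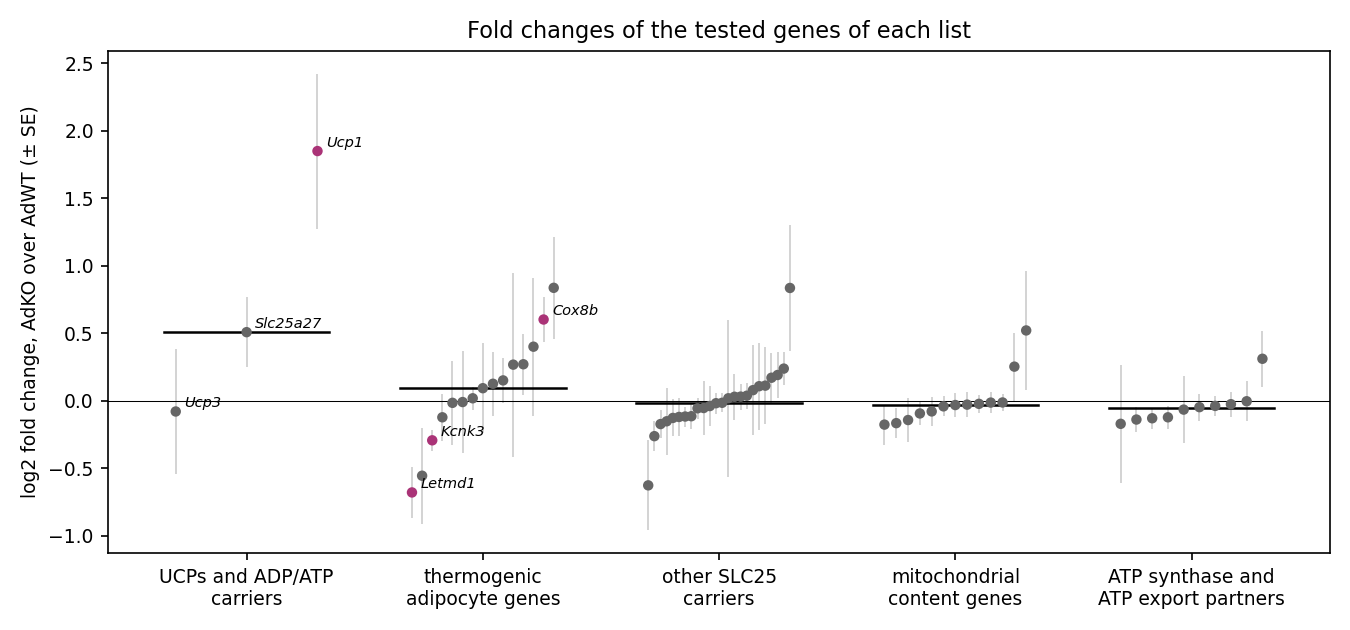
Log2 fold change (AdKO over AdWT, ± standard error) of each tested gene by list, with list medians as lines and genes with an unadjusted *p* under 0.05 in purple. *Ucp1*, at 1.85, is above all other points, while the medians of the 4 other lists lie between -0.06 and 0.09.

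Markers of other cells also differed among the libraries. The summed level of 10 macrophage markers was 1738, 1341 and 933 CPM in AdWT replicates 1, 2 and 3, and 1541, 1841 and 1834 CPM in AdKO replicates 1, 2 and 3, an order of libraries that differs from that of *Ucp1* only in the exchange of AdKO replicates 2 and 3. Of the 8 tested, 7 were higher and 1 lower, with a median of 0.39 on the log2 scale. The most abundant was *C1qc*, a complement component, and *Adgre1* was listed at 0. The part of these cells in the *Ucp1* and *Slc25a27* values was not tested.

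Adipocyte markers went the other way. Of the 10 tested, 8 were lower, 2 of them with an unadjusted *p* under 0.05 in edgeR's test and 3 with groups apart. The shares of all rows tested were 2.98% and 5.72%. The summed level of 11 markers was 63952 to 71711 CPM in AdWT and 58693 to 61003 CPM in AdKO, so the groups did not overlap. The libraries did not follow this order one by one, since AdKO replicate 1, with 59197 CPM, had less *Ucp1* than AdWT replicate 1, with 63952 CPM. The part of the adipocyte share in the *Ucp1* values was not tested. In bulk samples fewer cells of a type and less RNA per cell cannot be told apart. Skeletal muscle markers, 19 with a row, summed to 83.6, 267 and 66.9 CPM in AdWT replicates 1, 2 and 3 and to 55.2 to 57.6 CPM in AdKO, with *Myl1* the most abundant over all 6 libraries, *Atp2a1* in AdWT and *Casq1* in AdKO, and *Myh4*, *Tnnt3* and *Ampd1* listed at 0. The sums did not overlap, and of the 12 tested 2 were higher and 10 lower, with a median of -1.69 on the log2 scale, 7 lower with an unadjusted *p* under 0.05 and 6 lower with groups apart, against 2.98% and 5.72% of all rows tested. AdWT replicate 2, the highest for muscle, had the second highest count of *Ucp3* and the highest of *Slc25a4*, while AdKO replicate 1, the highest for *Ucp3*, had the lowest muscle sum. Leaving out AdWT replicate 2 put *Ucp3* at 0.13 on the log2 scale. With the mean muscle level as a covariate, *Ucp1* measured 1.37 (standard error 1.11, adjusted *p* = 0.9997 in edgeR's test), *Slc25a27* 0.25 and *Ucp3* 0.40 on the log2 scale. Since the muscle sums did not overlap between the groups, the covariate was largely confounded with the label in these fits.

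The sums of the remaining marker lists overlapped between the groups. Endothelial markers, 5 with a row and *Cdh5* the most abundant, summed to 878 to 1284 CPM in AdWT and 861 to 1223 CPM in AdKO. Lymphocyte markers, 12 with a row and *Ighm* the most abundant, summed to 67.2 to 84.5 and 53.3 to 73.0 CPM, with *Cd8a* and *Cr2* listed at 0. Of the 7 tested, 0 were higher and 7 lower, with a median of -0.37 on the log2 scale, and 1 had an unadjusted *p* under 0.05 in edgeR's test, *Cd4*, at -1.30, against 2.98% of all rows lower. *Cd4* stood at 13.1 CPM in AdWT replicate 1, against 3.71 and 3.68 CPM in AdWT replicates 2 and 3 and 2.63 to 2.96 CPM in AdKO. Nerve and Schwann cell markers, which bear on *Slc25a27*, had 4 rows, led by *Mbp* and with *Mag* at 0, and summed to 105 to 156 and 117 to 142 CPM. Their highest sum was in AdWT replicate 3, where *Slc25a27* measured 4.42 CPM. Members of the list differed in their order of libraries. *Sox10*, a Schwann cell factor, was lowest in AdWT replicates 2 and 3, at 1.55 and 1.87 CPM, as *Slc25a27* was. In AdKO replicate 3 *Sox10* was highest, at 5.11 CPM, where *Slc25a27* was lowest of the AdKO libraries, at 6.19 CPM. *S100b*, a glial calcium-binding protein, was highest in AdWT replicate 3, at 77.3 CPM. *Sox10* and *S100b* were chosen after their values were seen. The part of nerve in the *Slc25a27* values was not tested. Epithelial markers, 5 with a row and led by *Krt18*, were 20.3 CPM in AdWT replicate 3 and 48.0 CPM in AdKO replicate 3, against 0.894 to 1.44 in the other libraries.

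**Figure D4:**
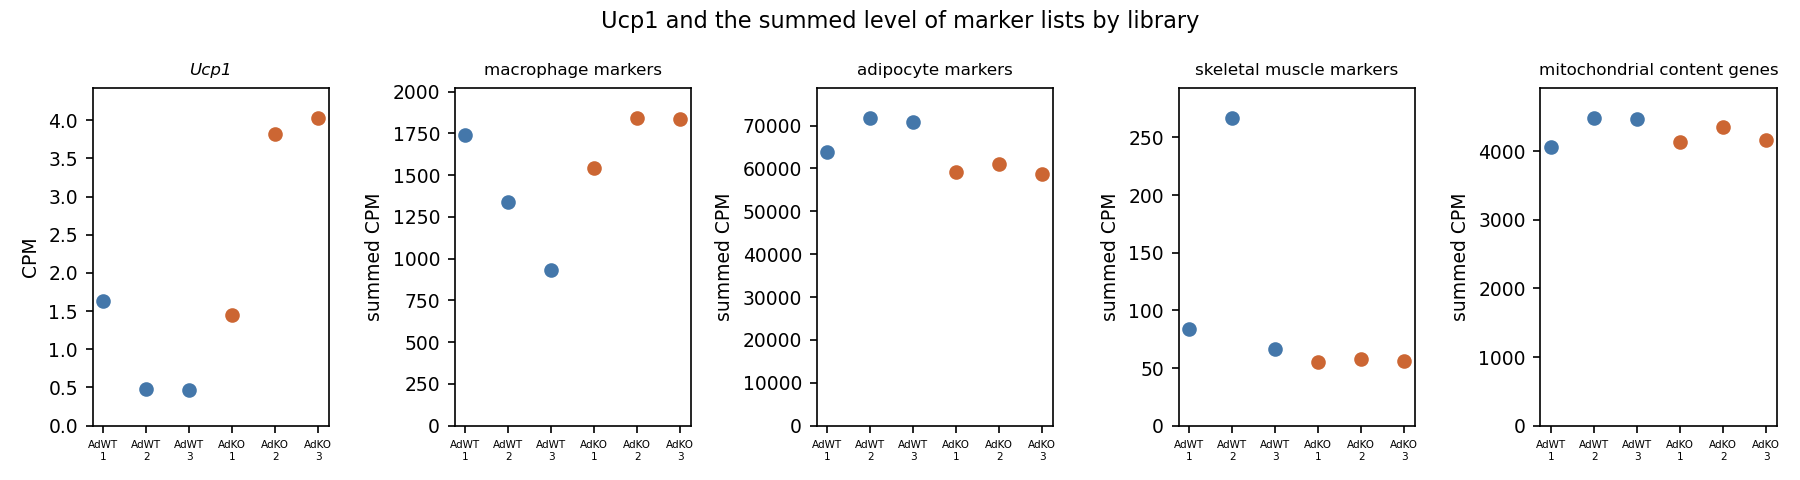
CPM of *Ucp1* and summed CPM of 4 gene lists (vertical axes, from 0) in each library, AdWT in blue and AdKO in orange. *Ucp1* and the macrophage markers are lowest in AdWT replicates 2 and 3 and highest in AdKO replicates 2 and 3, and the adipocyte markers are lower in all 3 AdKO libraries, at 58693 to 61003 CPM.

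The rows whose profile over the 6 libraries was most like that of each tested member were listed by Pearson's *r* of log2 CPM, as a description only, since the points share group and library. For *Ucp1* they were *Spice1* (*r* = 0.990, Spearman's rho = 0.943), *Slc22a17* (*r* = 0.985, rho = 0.943) and *Ten1* (*r* = 0.983, rho = 1). *Ten1* had 104, 102 and 87 counts in AdWT and 98, 117 and 137 in AdKO, a far smaller span than that of *Ucp1*. For *Slc25a27* they were *Cyb5r1* (*r* = 0.992), *Stradb* (*r* = 0.992) and *Stab1* (*r* = 0.987), with rho between 0.886 and 1. For *Ucp3* they were *Apol6*, *Egr1* and *Fam73a*, with *r* between 0.958 and 0.969 and rho of 0.943. With 6 libraries high values are common, and 178 of 9871 rows exceeded 0.9 for *Ucp1*, 234 for *Slc25a27* and 28 for *Ucp3*.

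**Figure D5:**
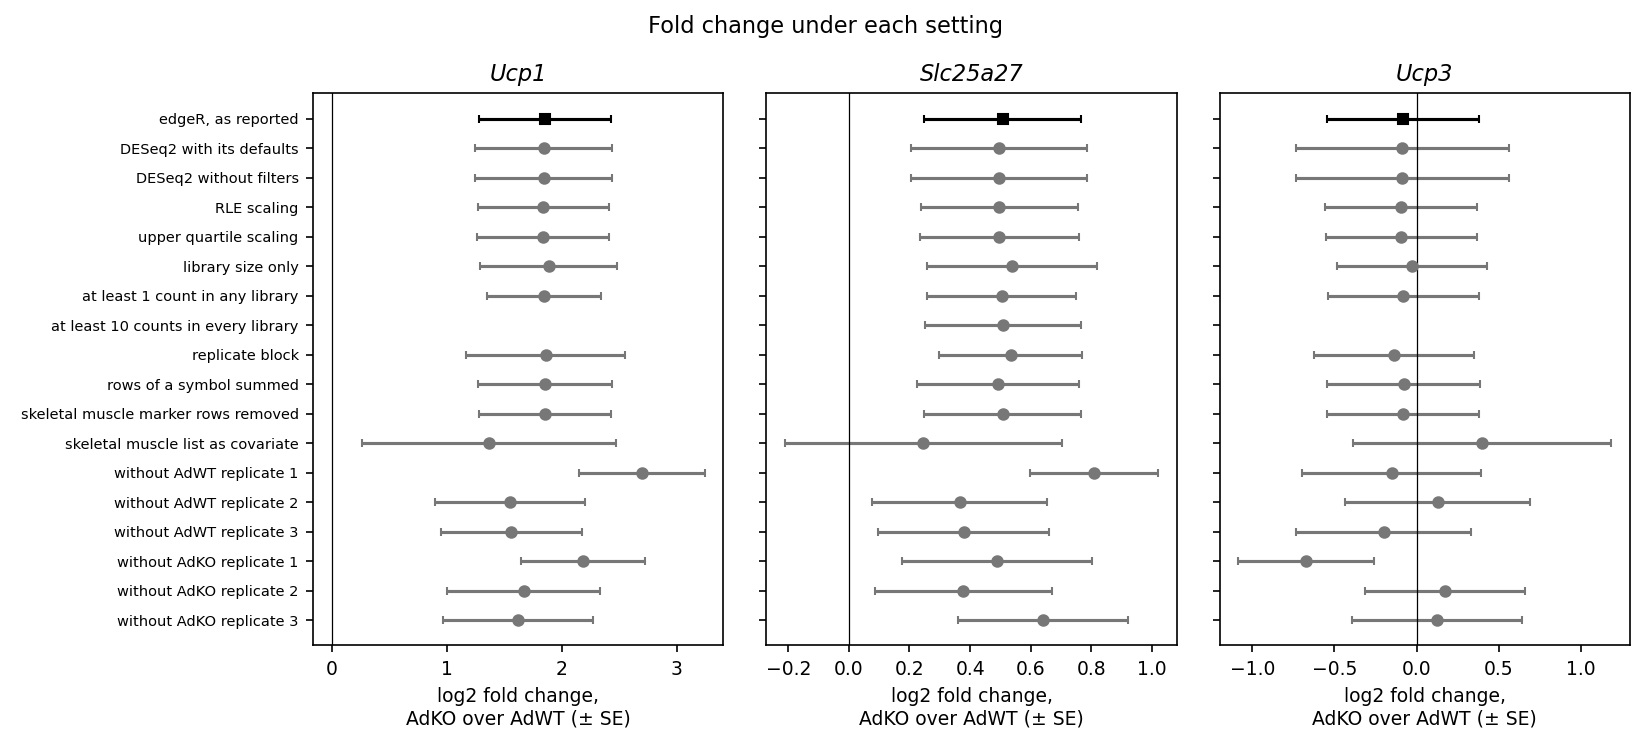
Log2 fold change (AdKO over AdWT, ± standard error) of the 3 tested members as reported (square) and under each other setting (circles). *Ucp1* stays above 0 in all settings, from 1.37 to 2.69, *Slc25a27* ranges from 0.25 to 0.81, and *Ucp3* lies on both sides of 0.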

How the data were processed

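RNA-Seq libraries were made with the KAPA Stranded RNA-Seq Kit, sequenced on an Illumina instrument and aligned by the authors with HISAT2 to mm9. They deposited raw counts per row, without normalization, for 3 AdWT and 3 AdKO libraries. The counting tool, its annotation and its strand setting are not given in the sources used here. Of 37024 rows, 17470 were at 0 throughout, and 8694 symbols had several rows. No column lacked a sample. Counts were tested with edgeR 4.0.16 (R 4.3.3) using filterByExpr, TMM scaling and the quasi-likelihood test, with Benjamini-Hochberg adjustment over 9872 rows and a threshold of 0.05. DESeq2 1.42.0, the study's tool, was an alternative. CPM are TMM-scaled. Standard errors were derived from the fold change and the F statistic, and 95% intervals use the test's degrees of freedom. Poisson intervals and the limit of 3 counts cover counting error only. Positions and exon lengths came from GENCODE M1 on NCBIM37 (mm9), without knowing which transcript a row stands for. The scripts were tested on simulated data. Beside all members, genes of the thermogenic, carrier, mitochondrial and ATP lists were named where their unadjusted *p* was under 0.05, where they were the list's extremes, or by a short fixed roster. Of the marker lists, the most abundant and undetected markers were named, with a few others. The 3 rows most like each tested member were also named. The members and lists were chosen with earlier results of these data known. Of 6 planned ratios, 4 needed genes not analysed here and were not computed. Protein sequences were not used here. Alternatives covered the test, scaling, filters, replicate block, summed rows, muscle genes, pseudocounts, gene length and each library left out. Same-numbered AdWT and AdKO libraries were checked for pairing.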

Additional observations from a re-analysis of the deposited data

How the results depend on the processing

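No member had an adjusted *p* under 0.05 in edgeR or DESeq2 under any setting tried. *Ucp1* and *Slc25a27* were higher in AdKO under every setting in which they were tested, from 1.55 to 2.69 and from 0.37 to 0.81 on the log2 scale with each library left out. Requiring 10 counts in every library left *Ucp1* and *Ucp3* untested, and DESeq2's defaults gave *Ucp1* no adjusted *p* (unadjusted *p* = 0.00204, and an adjusted *p* of 0.613 without its filters). The direction of *Ucp3* turned with the muscle covariate (0.40), which was largely confounded with the label. Over single libraries left out its log2 fold change ran from -0.67 to 0.17 (from -0.37 to 0.084 as a difference in log2 CPM). The difference of *Slc25a4* in log2 CPM was -0.042, turned to 0.061 with 0.1 CPM added and ran from -0.25 to 0.14 over single libraries left out, and its log2 ratio to *Slc25a3*, 0.35 with 0.5 counts added to the 0 of AdWT replicate 3, from -0.70 to 1.02. The cause of these turns was not tested. Rows with an adjusted *p* under 0.05 numbered 27 with DESeq2's defaults, 13 without its filters, 1 with the least filter, and 0 to 1 with each library left out. Rows with an unadjusted *p* under 0.05 numbered 299 with the muscle covariate and 329 (without AdWT replicate 2) to 1208 (without AdWT replicate 1). Rows whose groups did not overlap numbered 1773 with the least filter, which tests more rows, and 1842 to 3245 with 1 library fewer. Group-centred profiles of same-numbered libraries correlated at -0.10, -0.12 and 0.35 over rows. Differently numbered ones ran from -0.34 to 0.45. With 3 libraries per group this cannot decide whether the numbers mark pairs. With the replicate block, *Ucp1* measured 1.86 (unadjusted *p* = 0.0384, adjusted *p* = 0.941 in edgeR's test), *Slc25a27* 0.53 and *Ucp3* -0.14, and 418 rows had an unadjusted *p* under 0.05. With 0 to 6 counts for *Slc25a4* and 7 to 19 for *Ucp3*, counting intervals were wide.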
